A study of Mus musculus with 17 samples.

Results

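This set holds the places in the mouse genome where H3K4me3, the trimethylated lysine 4 of histone H3, was called in CD8 thymocytes of both genotypes and not in CD4 thymocytes. The islands (enriched intervals called in 1 library) of the 3 thymic H3K4me3 libraries were merged wherever they shared at least 1 bp, which gave 76060 regions. Of these, 1595 had islands of DKO CD8 and of WT CD8 and none of WT CD4. DKO CD8 are CD8 thymocytes with the genotype Tcf1-/-Lef1-/-, in which CD4-Cre had deleted both transcription factors. WT CD8 and WT CD4 are wild-type CD8 and CD4 thymocytes from control mice. All 3 groups are mature thymocytes, and the labels give TCRβ-high, CD69-negative, CD24-negative and CD8-positive as the sorted phenotype. That phenotype is also written on the WT CD4 samples, although title and source name call them CD4; the title was followed. The labels give neither an age nor the number of mice, and do not say whether control mice carried CD4-Cre. Deletion by CD4-Cre starts at a thymic stage that precedes the choice between the CD4 and CD8 lineages, so both factors had been present earlier in development. Tcf1 binding comes from splenic CD8 cells of wild-type mice, a different tissue, with Tcf1-/- splenic CD8 cells as the control, per the labels.

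H3K4me3 is written by methyltransferases of the SET1 and MLL family and marks the start sites of active and poised genes. H3K27ac and H3K9ac are acetyl marks of active promoters, and H3K27ac also of enhancers. H3K27me3 is written by Polycomb repressive complex 2 at silent genes. Lysine 27 cannot be acetylated and methylated on the same histone tail. Tcf1 and Lef1 are related HMG-box factors that bind DNA in T cells and take part in keeping CD4-lineage genes silent in CD8 cells.

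Each group had 1 library per mark, so group differences lack a replicate check and no p-value is given. Intervals are exact Clopper-Pearson intervals at 95% and cover counting error only. The 12 histone lists held 248234 to 4025243 reads in islands. The WT CD8 lists of H3K27ac and H3K4me3 met H3K27me3 most often. H3K27ac islands overlapped H3K27me3 islands of the same group in 13.6% of cases in DKO CD8, 33.3% in WT CD8 and 14.8% in WT CD4. H3K4me3 islands did so in 11.5% of cases in DKO CD8, 24.8% in WT CD8 and 19.4% in WT CD4. For H3K9ac islands WT CD8 did not stand apart, at 13.2% in DKO CD8, 16.9% in WT CD8 and 17.5% in WT CD4. The H3K4me3 lists used for the choice had 23411 islands in DKO CD8, 42013 in WT CD8 and 28449 in WT CD4. Their depth in total reads is not given in the sources used here, and genes at the regions were not analysed here because no mm9 annotation was at hand.

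The 1595 regions were chosen by their H3K4me3 islands, so their H3K4me3 values are a description. Agreement between the CD8 lists was rare where WT CD4 had no island. Of the DKO CD8 regions without WT CD4, 10.2% (9.69 to 10.6) had WT CD8, against 79.9% (79.0 to 80.8) of the DKO CD8 regions with WT CD4. Of the WT CD8 regions without WT CD4, 4.74% (4.52 to 4.98) had DKO CD8, against 74.4% (73.5 to 75.4) of those with WT CD4. The regions were as wide as those of all 3 groups, with a median of 1400 bp in each set. They were weaker: the median was 21 island reads in DKO CD8 and 24 in WT CD8, against 33 in DKO CD8 and 31 in WT CD8 at the 6019 regions of all 3 groups. The middle 50% ran between 16 and 32 reads in DKO CD8 and between 15 and 42 in WT CD8. The highest counts were 3103 reads in DKO CD8 and 3097 in WT CD8, both in the same region.

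In most regions the islands of the CD8 libraries lay on each other. The shorter of the 2 sets of islands was fully inside the other in 1012 regions, and at least 50% of it was in 1495. Across the 1595 regions, island reads of DKO CD8 and WT CD8 had a Spearman's rho of 0.53, against 0.60 at the regions of all 3 groups, as a description over regions that share the 2 libraries and, in part, their own width. The nearest WT CD4 H3K4me3 island was a median of 39.4 kb away. It was within 1 kb for 46 regions and abutted 8 of them end to end. Another of the 1595 regions lay within 50 kb of 183.

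**Figure D1:**
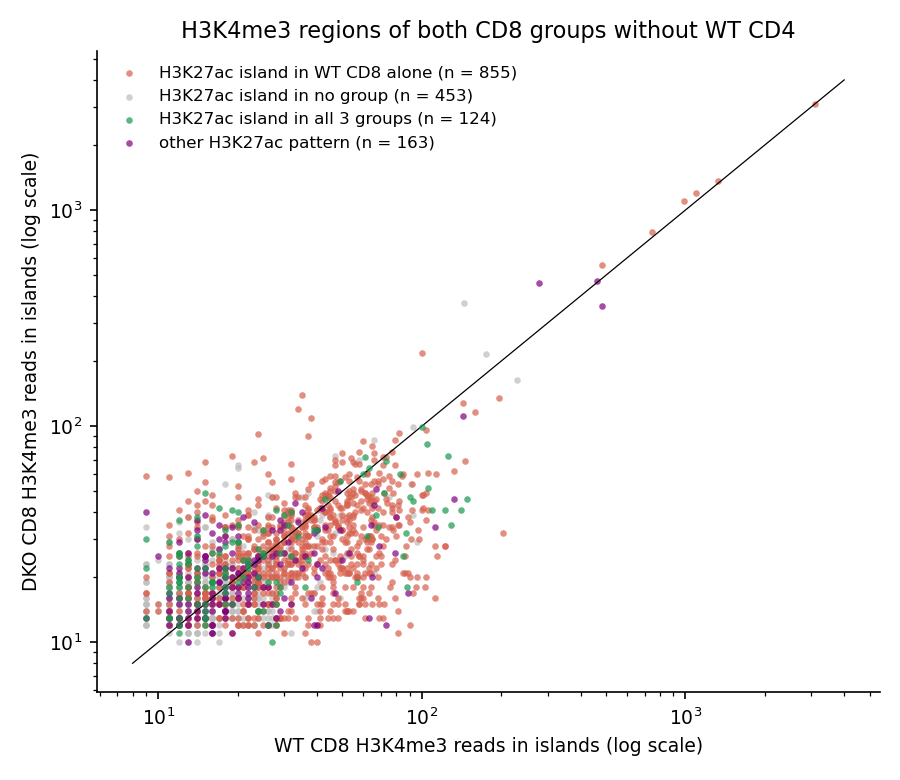
Island reads of H3K4me3 in DKO CD8 (vertical, log scale) and WT CD8 (horizontal, log scale) at the 1595 regions, each point 1 region, coloured by the groups with an H3K27ac island; the line marks equal reads. The bulk of points lies near the medians of 21 and 24 reads, the 855 regions with H3K27ac of WT CD8 alone reach to 3103 DKO CD8 and 3097 WT CD8 reads, and 124 regions had H3K27ac in all 3 groups.

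At the edge of the rule the counts were small. At the lowest rank 26 included regions tied, and the last 3 of them in chromosome order are given: chr9:3919801-3920800 (mm9) with 17 DKO CD8 and 9 WT CD8 reads, chr9:70085001-70085400 with 14 DKO CD8 and 9 WT CD8 reads, and chrX:3225801-3226200 with 15 DKO CD8 and 9 WT CD8 reads. All positions are on mm9 and counted from 1. Just outside stood regions with the fewest WT CD4 reads: chr12:52651801-52654000 had 31 reads in DKO CD8, 20 in WT CD8 and 10 in WT CD4, and chr14:56340801-56341600 had 23 in DKO CD8, 14 in WT CD8 and 10 in WT CD4. At chr15:102075601-102077400 the reads were 23 in DKO CD8, 50 in WT CD8 and 10 in WT CD4. Of the regions of all 3 groups, 270 had no more than 20 WT CD4 reads. A region without an island can still hold reads that the list does not give.

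Relative to the median ratio over the 7614 regions with islands of both CD8 groups, H3K4me3 at the 1595 regions in DKO CD8 over WT CD8 had a median of -0.17 on the log2 scale (interval of the median -0.20 to -0.13), against 0.04 at the regions of all 3 groups. At least 2-fold higher in DKO CD8 were 77 regions (4.83%), where the background was 5.9%. At least 2-fold lower were 255 (16.0%), where the background was 7.42%. The rule used both libraries, and nothing is read from these shares. Divided by total island reads instead, the median was 0.55 at the 1595 regions, so its sign depends on the scale.

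The first question the other marks answer is whether the 1595 regions carried the acetylation of active promoters in the groups where H3K4me3 was called. H3K27ac was called at most of them in WT CD8 and at few in the other groups, where its share was at or below that of all merged regions. A DKO CD8 H3K27ac island overlapped 255 regions (16.0%, 14.2 to 17.9), against 16.1% of all merged H3K4me3 regions. A WT CD8 H3K27ac island overlapped 1046 (65.6%, 63.2 to 67.9), against 25.7% of all merged regions. For WT CD4 the number was 207 (13%, 11.4 to 14.7), against 16% of all merged regions. At regions of all 3 groups, H3K27ac islands were found far more often, at 97.1% in DKO CD8, 80.5% in WT CD8 and 97.2% in WT CD4.

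H3K9ac was seldom called at the regions in any group. Islands overlapped 167 regions in DKO CD8 (10.5%, 9.01 to 12.1), 176 in WT CD8 (11%, 9.54 to 12.7) and 251 in WT CD4 (15.7%, 14.0 to 17.6). The same shares over all merged regions were 6.75% in DKO CD8, 7.21% in WT CD8 and 17% in WT CD4. The WT CD4 H3K9ac list was the longest of the 3, at 32651 islands, against 6516 in DKO CD8 and 9860 in WT CD8. An acetyl island of either kind in WT CD4 lay at 326 of the 1595 regions (20.4%, 18.5 to 22.5). This was near the 21.2% of all merged regions. By the rule, none of the 326 had a WT CD4 H3K4me3 island.

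H3K27me3, the Polycomb mark, was found most often in WT CD8. A DKO CD8 H3K27me3 island overlapped 282 regions (17.7%, 15.8 to 19.6), against 11.7% of all merged regions. For WT CD8 the number was 912 (57.2%, 54.7 to 59.6), against 19.8% of all merged regions, and for WT CD4 157 (9.84%, 8.42 to 11.4), against 14.3%. At regions of all 3 groups, 4.19% had WT CD8 H3K27me3. The WT CD8 H3K27me3 share was 12.6% where DKO CD8 and WT CD4 shared H3K4me3 and 21.3% where WT CD8 and WT CD4 did, and neither interval met that of the 1595 regions. It was 27.6% at regions of WT CD8 alone and 13.1% at those of DKO CD8 alone. At similar width, WT CD8 alone reached or passed the 1595 regions above 1400 bp, as given below.

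**Figure D2:**
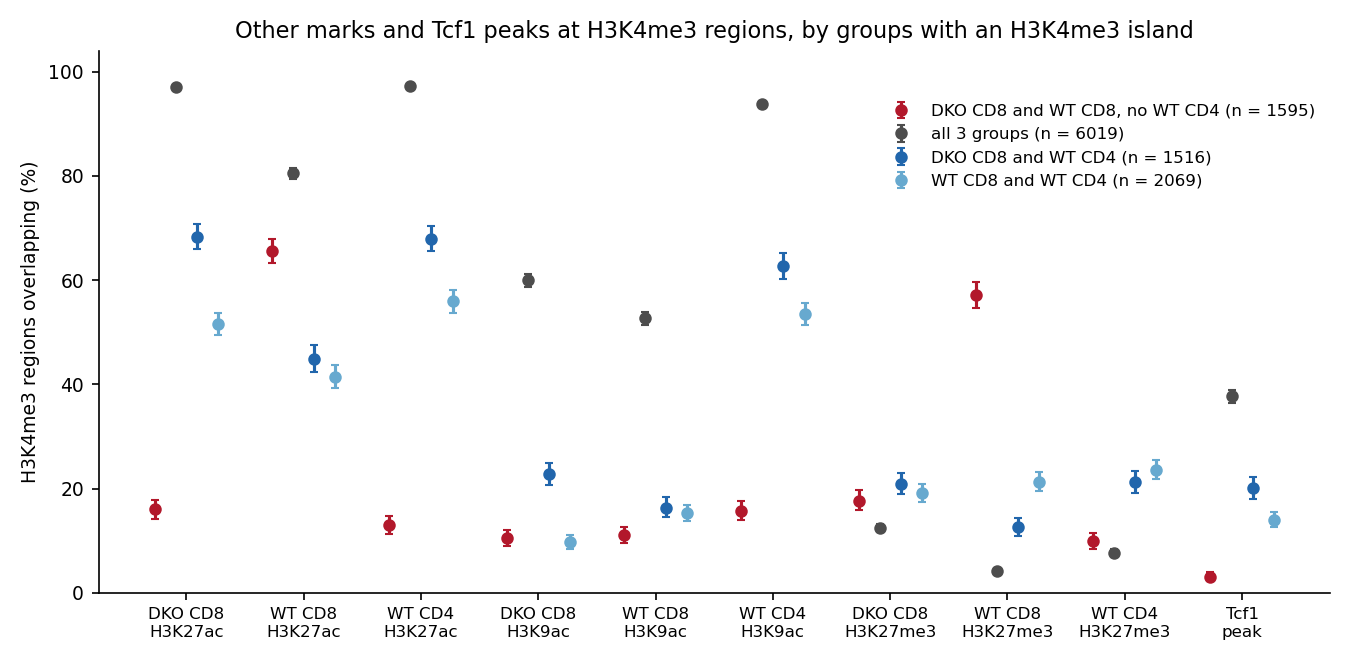
Share of H3K4me3 regions (%) that overlap an island of another mark or a Tcf1 peak, by list (horizontal) and by the groups with an H3K4me3 island (colour); bars are 95% Clopper-Pearson intervals. The regions of both CD8 groups without WT CD4 stand high for WT CD8 H3K27ac (65.6%) and WT CD8 H3K27me3 (57.2%) and low for DKO CD8 H3K27ac (16.0%) and Tcf1 peaks (3.01%).

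In WT CD8, the acetyl and the methyl mark of lysine 27 often fell on the same regions. In DKO CD8, H3K27ac and H3K27me3 islands together overlapped 55 regions (3.45%, 2.61 to 4.46), against 2.6% of all merged regions. In WT CD8 the pair was found at 799 (50.1%, 47.6 to 52.6), against 11.9%, and in WT CD4 at 24 (1.5%, 0.966 to 2.23), against 2.28%. At 461 of the 1595 regions the WT CD8 pair alone was present among the other 9 histone lists. The same share over all merged regions was not taken, so nothing is read from this count. A further 263 regions (16.5%) had none of the 9 lists, against 48.8% of all merged regions. At the 799 regions the H3K4me3 island density had a median of 22.8 reads per kb in DKO CD8 and 23.3 in WT CD8. The WT CD8 medians of the other marks were close to that, at 27 H3K27ac and 24.5 H3K27me3 reads per kb. The WT CD8 H3K27ac and H3K27me3 lists met more often across the genome as well. The part of that in this pattern was not tested. The input libraries were not analysed here, so that no value shows whether these WT CD8 islands stand above the background reads of their places, which bears on the shares of 65.6%, 57.2% and 50.1% alike.

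The shares were also taken without the 912 regions over a WT CD8 H3K27me3 island, a set chosen after the values were seen. At the 683 regions left, H3K27ac was called at 26.8% in DKO CD8, 36.2% in WT CD8 and 23.4% in WT CD4. Over all merged regions, those with WT CD8 H3K27me3 included, these shares were 16.1% in DKO CD8, 25.7% in WT CD8 and 16% in WT CD4. Each group lay above its own, but the sets are unlike, since all merged regions were not filtered in the same way. At the 683 regions H3K9ac was called at 21.5% in WT CD4, against 17% of all merged regions. H3K27me3 was called at 10.8% in DKO CD8, against 11.7%. Tcf1 peaks overlapped 45 of the 683 (6.59%, 4.85 to 8.72), against 4.47% of all merged regions. The sets are as unlike for these shares.

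The 1595 regions divided into sets by the groups with H3K27ac. The largest, 855 regions (53.6%), had H3K27ac in WT CD8 alone, against 15.4% of all merged regions. Of these, 726 (84.9%, 82.3 to 87.2) had a WT CD8 H3K27me3 island, 155 (18.1%) one of DKO CD8 and 46 (5.38%) one of WT CD4. H3K9ac was called at 58 of them in DKO CD8 (6.78%, against 6.75% of all merged regions), 83 in WT CD8 (9.71%, against 7.21%) and 70 in WT CD4 (8.19%, against 17%). Their median width was 1800 bp, against 1400 bp over the 1595, and they lay a median of 59.6 kb from a WT CD4 H3K4me3 island. A Tcf1 peak overlapped 1 of them.

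H3K27ac was called in all 3 groups at 124 regions (7.77%), against 9.35% of all merged regions. H3K9ac was found at 51 of them in DKO CD8 (41.1%), 52 in WT CD8 (41.9%) and 92 in WT CD4 (74.2%). This was less often than at the 4748 regions with both H3K4me3 and H3K27ac in all 3 groups, where it was found at 68.9% in DKO CD8, 60.2% in WT CD8 and 96.9% in WT CD4. WT CD8 H3K27me3 overlapped 21 (16.9%, 10.8 to 24.7). Their H3K4me3 had a median of 24 reads in DKO CD8 and 20 in WT CD8, where the weakest islands had 10 reads in the DKO CD8 list and 9 in the WT CD8 list. H3K27ac density was 41.0 reads per kb in DKO CD8, 28.1 in WT CD8 and 49.0 in WT CD4, against 60 in DKO CD8, 28.8 in WT CD8 and 67 in WT CD4 at the same 4748 regions. WT CD4 thus had H3K27ac, and mostly H3K9ac, at places where its H3K4me3 list had no island.

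H3K27ac with the same pattern as H3K4me3, in both CD8 groups and not in WT CD4, was called at 48 regions (3.01%), against 0.452% of all merged regions. A similar number, 51 (3.20%, against 4.11%), had H3K27ac in every group but WT CD8. Of the 48 regions, 36 had WT CD8 H3K27me3, 23 DKO CD8 H3K27me3 and 10 WT CD4 H3K27me3. Only 12 of the 48 lacked a WT CD8 H3K27me3 island, and 5 of these 12 had one of DKO CD8. Where DKO CD8 and WT CD4 shared H3K4me3, H3K27ac had the matching pattern at 371 of 1516 regions (24.5%, against 4.11% of all merged regions). H3K27ac of DKO CD8 and WT CD4 was nearly as frequent where H3K4me3 did not match it. It was found at 20.2% of the H3K4me3 regions of WT CD8 and WT CD4 and 17.2% of those of all 3 groups. Where WT CD8 and WT CD4 shared H3K4me3, the matching pattern was found at 55 of 2069 (2.66%, against 0.542%). Of the rest, H3K27ac was called in DKO CD8 alone at 32 regions (2.01%, against 2.18%), in both WT groups at 19 (1.19%, against 0.542%) and in WT CD4 alone at 13 (0.815%, against 2%). No group had it at 453 regions (28.4%), against 66% of all merged regions.

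**Figure D3:**
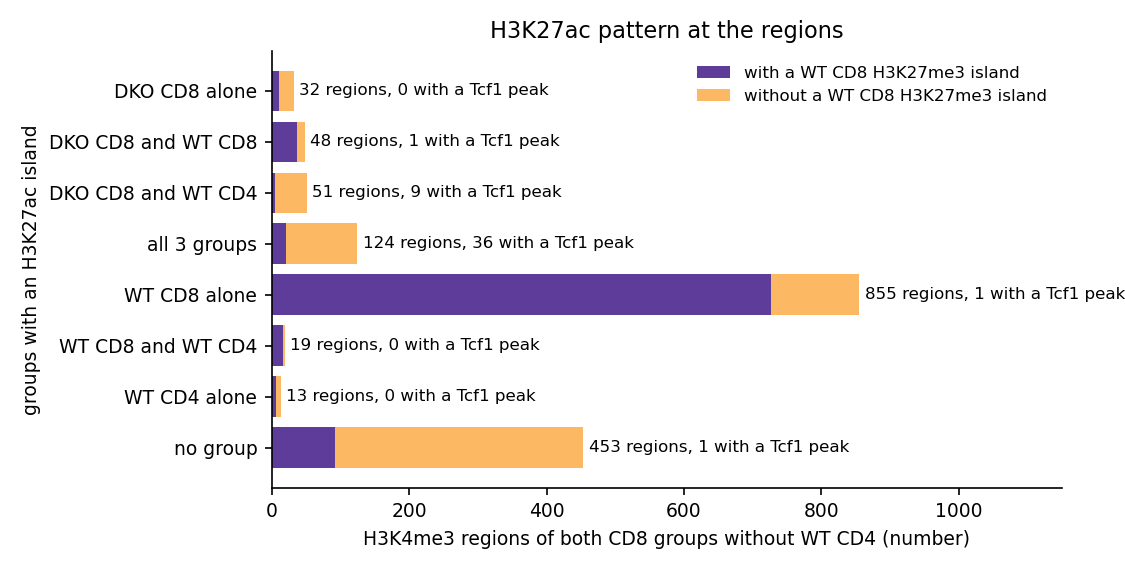
Number of the 1595 regions (horizontal) by the groups with an H3K27ac island (vertical), split by whether a WT CD8 H3K27me3 island overlapped. The bar of WT CD8 alone holds 855 regions, 726 of them with WT CD8 H3K27me3 and 1 with a Tcf1 peak, while 36 of the 124 regions with H3K27ac in all 3 groups have a Tcf1 peak.

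Regions with stronger H3K4me3 had WT CD8 H3K27ac and H3K27me3 more often, and DKO CD8 H3K27ac less often. The regions were ranked by the lower of the DKO CD8 and WT CD8 H3K4me3 reads, each divided by its list total, and split into quartiles. WT CD8 H3K27ac was found at 36.3% of the weakest quartile and 92.7% of the strongest, and WT CD8 H3K27me3 at 29.1% and 85.7%. DKO CD8 H3K27ac was found at 20.1% (16.2 to 24.3) of the weakest and 11.8% (8.81 to 15.4) of the strongest. WT CD8 H3K9ac was found at 7.77% (5.34 to 10.8) of the weakest quartile and 14.8% (11.5 to 18.7) of the strongest. For DKO CD8 H3K9ac the shares were 8.77% (6.19 to 12) and 13.6% (10.4 to 17.3), with intervals that overlapped. H3K9ac was not compared at similar width, and no mark was compared between quartiles at similar width. The median width was 1000 bp in the weakest quartile and 2600 bp in the strongest. Strength and width thus rose together, and which of them the shares follow was not tested. A Tcf1 peak was found at 16 regions of the weakest quartile and 5 of the strongest.

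**Figure D4:**
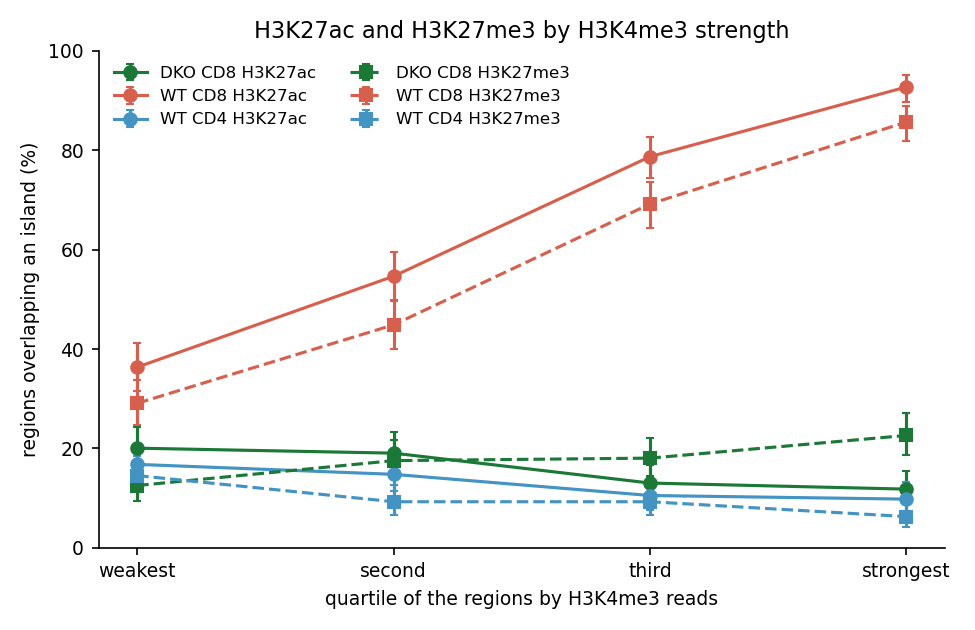
Share of the 1595 regions (%) with an H3K27ac island (circles, full lines) or an H3K27me3 island (squares, dashed lines) of each group, by quartile of H3K4me3 reads from weakest to strongest; bars are 95% Clopper-Pearson intervals. Both WT CD8 lines climb, H3K27ac to 92.7% and H3K27me3 to 85.7%, while DKO CD8 H3K27ac ends at 11.8%.

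A wider region has more room to overlap an island, so the shares were also set side by side at similar width. Among regions of up to 800 bp, WT CD8 H3K27me3 overlapped 30.7% of the regions of both CD8 groups without WT CD4, 3.12% of those of all 3 groups and 17.7% of those of WT CD8 alone. In the same order the shares were 46.2%, 2.54% and 36.7% from 800 to 1400 bp, and 63.3%, 4.54% and 69.1% from 1400 to 2200 bp. Above 2200 bp they were 86.6%, 10.9% and 94.0%. DKO CD8 H3K27ac overlapped 21.6% of the regions of up to 800 bp and 10.8% of those above 2200 bp, against 3.88% and 2.49% of the regions of WT CD8 alone. WT CD8 H3K27ac overlapped 42.4% of the regions of up to 800 bp, against 16.8% of those of WT CD8 alone. From 800 to 1400 bp it overlapped 56.2%, against 36.3%. It was no more frequent above 1400 bp, with 70.3% against 71.3% from 1400 to 2200 bp and 91.6% against 94.8% above. At regions of all 3 groups DKO CD8 H3K27ac overlapped between 94.6% and 97.7%, depending on the width.

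**Figure D5:**
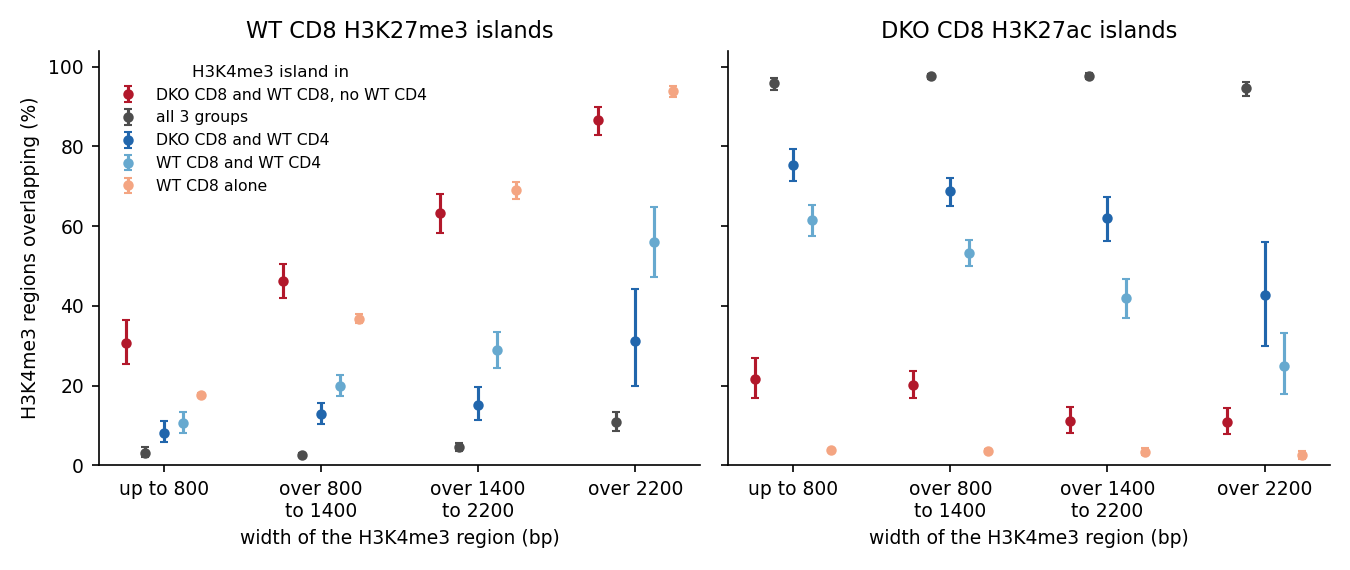
Share of H3K4me3 regions (%) with a WT CD8 H3K27me3 island (left) or a DKO CD8 H3K27ac island (right), by width of the region (bp) and by the groups with an H3K4me3 island (colour); bars are 95% Clopper-Pearson intervals. At every width the regions of both CD8 groups without WT CD4 lie above those of all 3 groups for WT CD8 H3K27me3 and below them for DKO CD8 H3K27ac.

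The second question is whether the loss of Tcf1 and Lef1 went with altered marks at the regions. H3K27ac reads could be compared at 177 H3K27ac regions that had islands of both CD8 groups and overlapped one of the 1595. Relative to the median ratio over all 11068 such regions, H3K27ac in DKO CD8 over WT CD8 had a log2 median of -0.46 (-0.98 to -0.19). At least 2-fold higher in DKO CD8 were 9 (5.08%), where the background was 8.08%, and at least 2-fold lower were 73 (41.2%), where the background was 15.2%. Of the 73, 51 overlapped one of the 1595 regions that had a WT CD8 H3K27me3 island. At all 58 H3K27ac regions with such an overlap the median log2 ratio was -2.41 (-2.71 to -2.09). Their medians were 31.5 reads in DKO CD8 and 106.5 in WT CD8. At the other 119 it was -0.03 (-0.18 to 0.14), with 113 reads in DKO CD8 and 44 in WT CD8. On total island reads the median of the 177 was 1.05, so that the sign of the whole depends on the scale.

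H3K27me3 reads could be compared at 216 H3K27me3 regions that had islands of both CD8 groups and overlapped one of the 1595. DKO CD8 over WT CD8 had a log2 median of -1.62 (-1.80 to -1.49), against a median of 0 over all 9092 such regions by centring. At least 2-fold lower in DKO CD8 were 153 (70.8%), where the background was 20.7%, and at least 2-fold higher were 6 (2.78%), where the background was 7.68%. On total island reads the median was -0.72. H3K27ac in WT CD4 over WT CD8 had a median of -0.40 (-0.77 to -0.19) at 150 regions, with 2 at least 2-fold higher (background 6.3%) and 56 lower (background 13.5%). On total island reads its median was 1.20, so that this sign depends on the scale too. The comparisons share the WT CD8 libraries, so their signs are not separate observations.

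Tcf1 peaks of splenic CD8 cells were found at fewer of the regions than of those that WT CD4 shared with a CD8 group, and at more than of those of 1 group. A peak overlapped 48 of them (3.01%, 2.23 to 3.97), against 4.47% of all merged regions, 37.7% of those of all 3 groups, 20.1% of those of DKO CD8 and WT CD4 and 14.0% of those of WT CD8 and WT CD4. The shares were 0.822% at regions of DKO CD8 alone, 0.337% at those of WT CD8 alone and 1.41% at those of WT CD4 alone. Of the 48 regions, 46 had DKO CD8 H3K27ac, 38 WT CD8 H3K27ac and 45 WT CD4 H3K27ac, while 3 had WT CD8 H3K27me3. A peak was found at 36 of the 124 regions with H3K27ac in all 3 groups (29.0%, 21.2 to 37.9). It was found at 9 of the 51 with H3K27ac in DKO CD8 and WT CD4 (17.6%, 8.40 to 30.9). These shares were not taken over all merged regions with the same H3K27ac pattern, nor over all merged regions with a peak. Regions with H3K4me3 of all 3 groups, of which 37.7% had a peak, had DKO CD8 H3K27ac at 97.1%. Whether peaks go with H3K27ac more at the regions described here than elsewhere was not tested. H3K4me3 at the 48 regions had a median of 19.5 reads in DKO CD8 (range 11 to 60) and 20 in WT CD8 (range 9 to 60). They held 52 peaks with a median of the authors' score of 83.1, against 76.4 over all 7807 peaks. The median distance of these peaks from the centre of the shared H3K4me3 was 236 bp.

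The Tcf1-bound region with the most H3K4me3 was chr6:71272801-71275200. It had 60 H3K4me3 reads in DKO CD8 and 60 in WT CD8. Overlapping H3K27ac islands held 177 reads in DKO CD8, 148 in WT CD8 and 101 in WT CD4, and H3K9ac islands 79 in DKO CD8, 58 in WT CD8 and 43 in WT CD4. No group had H3K27me3 there, and its peak score of 270.6 was the highest among the 52 peaks. The H3K4me3 of the CD8 groups stood beside acetylation in all 3 groups, with the fewest acetyl reads in WT CD4, whose H3K27ac and H3K9ac lists held the most reads of the 3 groups.

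A region about 50 kb further on the same chromosome, chr6:71323201-71326000, was chosen after its values were seen. It had 25 H3K4me3 reads in DKO CD8 and 85 in WT CD8, a centred log2 value of -1.84 for DKO CD8 relative to WT CD8 (-2.55 to -1.18). H3K27ac islands held 145 reads in DKO CD8, 84 in WT CD8 and 76 in WT CD4. Although DKO CD8 had more H3K27ac reads, its centred H3K27ac log2 value was -0.65 (-1.05 to -0.25). H3K9ac islands held 37 reads in DKO CD8 and 15 in WT CD8, with no island in WT CD4.

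At chr7:50692401-50694200 all 3 active marks had the same pattern. H3K4me3 had 40 reads in DKO CD8 and 35 in WT CD8. H3K27ac had 233 in DKO CD8 and 42 in WT CD8, and H3K9ac 55 in DKO CD8 and 29 in WT CD8. WT CD4 had no island of any of them. It was the only one of the 1595 regions with both acetyl marks in both CD8 groups and neither in WT CD4, and 6 of all 76060 merged regions had that pattern. It had no H3K27me3 island in any group and a Tcf1 peak with a score of 172.14. Relative to the median ratio over all regions of both CD8 groups, its log2 ratio of H3K27ac was 1.03 (0.55 to 1.54) in DKO CD8, and that of H3K4me3 was 0.12 (-0.57 to 0.81). The nearest WT CD4 H3K4me3 island was 4.4 kb away.

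The other Tcf1-bound regions with the most H3K4me3 had several patterns. At chrX:77841601-77844400, with 32 H3K4me3 reads in DKO CD8 and 54 in WT CD8, H3K27ac was called in WT CD8 alone (135 reads) and H3K27me3 in DKO CD8 (89) and WT CD8 (121). At chr1:161974401-161976000 the H3K4me3 reads were 33 in DKO CD8 and 39 in WT CD8, and H3K27ac islands held 255 in DKO CD8, 132 in WT CD8 and 1250 in WT CD4. At chr8:23918001-23919800 they were 31 in DKO CD8 and 34 in WT CD8, with 298 H3K27ac reads in DKO CD8, 95 in WT CD8 and 372 in WT CD4. WT CD4 had no H3K4me3 island at either of the last 2 regions. Scaled to 1000000 island reads in each list, H3K27ac at the chromosome 1 region was 130 in DKO CD8, 64.2 in WT CD8 and 499 in WT CD4, and at the chromosome 8 region 152 in DKO CD8, 46.2 in WT CD8 and 148 in WT CD4, so that at the second of them the order of DKO CD8 and WT CD4 turned with the scale.

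The regions with the most H3K4me3 were of another kind. The strongest, chr7:67002201-67047600, had 3103 H3K4me3 reads in DKO CD8 and 3097 in WT CD8. WT CD8 islands there held 3054 H3K27ac, 2420 H3K9ac and 4348 H3K27me3 reads, and WT CD4 islands 3026 H3K9ac reads. At chr18:90771401-90772000 the reads were 1358 H3K4me3 in DKO CD8, and 1327 H3K4me3, 1477 H3K27ac and 1472 H3K27me3 in WT CD8. At chr8:19920201-19930400 they were 1195 H3K4me3 in DKO CD8, and 1098 H3K4me3, 1310 H3K27ac and 1608 H3K27me3 in WT CD8, with 1198 H3K9ac reads in WT CD4. DKO CD8 had no island of another mark at any of them, while WT CD8 had H3K4me3, H3K27ac and H3K27me3 reads of like number at each. These 3 were among 8 regions at high-signal places (0.502%, against 0.125% of all merged regions), where H3K27me3 and another mark were both at the extreme upper end of reads per kb in their lists.

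Outside those places the order was led by chrX:166526801-166527600, with 788 H3K4me3 reads in DKO CD8, 746 in WT CD8 and 871 WT CD8 H3K27ac reads over 0.8 kb. No group had an H3K27me3 island there, so it could not count as a high-signal place, whatever its other reads. Neighbours on chromosome X, chrX:92125201-92143800 and chrX:92148401-92167600, had 471 and 358 H3K4me3 reads in DKO CD8 against 462 and 483 in WT CD8. They shared H3K27me3 islands of 2844 reads in DKO CD8, 2130 in WT CD8 and 2727 in WT CD4. At chr4:146709801-146726400 H3K4me3 had 458 reads in DKO CD8 and 278 in WT CD8, with H3K27me3 of 799 reads in DKO CD8, 288 in WT CD8 and 762 in WT CD4. At chr1:85321001-85328400, with 163 DKO CD8 and 230 WT CD8 reads, none of the 9 other lists had an island, and the same held at chr5:15183801-15190200, with 370 DKO CD8 and 144 WT CD8 reads.

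The strongest regions with H3K27ac in both CD8 groups and not in WT CD4 were the neighbours on chromosome X, where H3K27ac islands held 1002 and 1102 reads in DKO CD8 against 1180 and 1312 in WT CD8. Both neighbours overlapped the same merged H3K27ac region, so that these counts share islands and are not separate. Next came chr14:80488401-80491000, with 51 H3K4me3 reads in DKO CD8 and 67 in WT CD8, and 53 H3K27ac reads in DKO CD8 and 124 in WT CD8. At chr14:40545601-40548000 the H3K4me3 reads were 43 in DKO CD8 and 66 in WT CD8, and those of H3K27ac 22 in DKO CD8 and 105 in WT CD8. At chr9:58626201-58629400 H3K4me3 had 38 reads in DKO CD8 and 80 in WT CD8, and H3K27ac 33 in DKO CD8 and 198 in WT CD8. The last 3 regions had more H3K27ac reads in WT CD8 than in DKO CD8 and H3K27me3 in WT CD8 alone, with 82, 146 and 182 reads. Islands of H3K27me3 in WT CD4 were found at the neighbours on chromosome X, at the chromosome 4 region, at chrX:3093201-3098200 (113 reads) and at chr10:119330401-119332200 (27 reads). The H3K4me3 reads at the last 2 were 99 and 54 in DKO CD8 against 93 and 91 in WT CD8.

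In place the regions differed from those of all 3 groups. Chromosome X held 144 of them (9.03%, 7.67 to 10.5), against 4.18% of all merged regions and 1.78% of those of all 3 groups. The share was also above that of all merged regions where a CD8 group stood alone, at 6.88% for DKO CD8 and 4.83% for WT CD8. It was below it at regions of WT CD4 alone (1.55%), of DKO CD8 and WT CD4 (4.02%) and of WT CD8 and WT CD4 (3%). Per Mb between the outermost islands this was 0.880 on chromosome X, where the autosomes ran between 0.466 and 0.883, with chromosome 7 highest. Regions of all 3 groups were sparser on chromosome X, at 0.654 per Mb, than on any autosome, which ran between 1.74 and 4.39. So were all merged regions, at 19.4 per Mb on chromosome X and between 24.2 and 36.9 on the autosomes. The share on chromosome X was 10.9% (8.87 to 13.2) among the 855 regions with H3K27ac in WT CD8 alone and 3.23% (0.886 to 8.05) among the 124 with H3K27ac in all 3 groups. Over the autosomes the density varied by 18.7% (coefficient of variation), against 28.7% for regions of all 3 groups.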

How the data were processed

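Data are 12 island lists and 1 Tcf1 peak list on the mm9 build. The deposited island lists give a whole-number read count per island, not normalized, and the deposited peak list gives the authors' score per peak. FastQC, Bowtie2 2.2.5, SICER 1.1 and MACS 1.4.2 are named per the submitters' processing notes, with no role given. Per the labels, some samples were sequenced a second time; inputs were not analysed here. Islands lie on a 200 bp grid; the smallest gap was 400 bp for H3K4me3.

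H3K4me3 islands of the 3 groups sharing at least 1 bp were merged. Reads at a region are those of all overlapping islands, which can reach beyond it. Ratios were centred on the median over regions with islands of both libraries; intervals of ratios are conditional on the summed count. Named regions are those with the highest ranks of all, with CD8-only H3K27ac, with Tcf1 peaks or with WT CD4 H3K27me3, those at the rule's edge and at high-signal places (past percentile 99.5 of reads per kb of their list in 2 or more marks, H3K27me3 included); the text gives some. Members and lists were chosen with earlier results of these data known. The 9 planned gene lists and the sequences of regions were not used here, since no mm9 genome or annotation was at hand. SciPy 1.17.1 with numpy 2.4.6 and pandas 2.3.3 on Python 3.11.15 gave the values, and matplotlib 3.10.9 the plots; merging and overlap were checked against bedtools 2.31.1 and tested on simulated data.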

Additional observations from a re-analysis of the deposited data

How the results depend on the processing

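With an overlap of at least 50% of the shorter island (1508 regions), with regions more than 1 kb from any WT CD4 H3K4me3 island (1549) or without high-signal places (1587), the number of regions moved by less than 1.5 times and the 10 shares stayed within their intervals. With islands above the median reads of their list, 969 regions met the rule, of which 100 had a weaker WT CD4 island. Their H3K27ac shares were 21.3% in DKO CD8, 81.1% in WT CD8 and 18.0% in WT CD4, their H3K9ac shares 15.9% in DKO CD8, 14.3% in WT CD8 and 22.8% in WT CD4, and their H3K27me3 shares 21.3% in DKO CD8 and 67.2% in WT CD8, with Tcf1 peaks at 4.75%. Without those 100, a choice made after seeing the data, 869 regions were left, with WT CD8 H3K27ac at 82.3%, H3K9ac at 12.5% in DKO CD8 and 13.6% in WT CD8, and H3K27me3 at 21.3% in DKO CD8, 72.6% in WT CD8 and 8.06% in WT CD4; DKO CD8 H3K27ac was at 14.7%. Without regions that have a WT CD8 H3K27me3 island, chosen after seeing the data, 683 regions remained, with H3K27ac at 26.8% in DKO CD8, 36.2% in WT CD8 and 23.4% in WT CD4, WT CD4 H3K9ac at 21.5%, DKO CD8 H3K27me3 at 10.8% and Tcf1 peaks at 6.59%. The DKO CD8 over WT CD8 medians turned to 0.55 for H3K4me3 and 1.05 for H3K27ac on total island reads, since the centre moves. Limited to regions whose higher library had 50 reads or more, H3K4me3 was at -0.90; the cause was not tested. No paired analysis was possible because each group had 1 library per mark. The distance of regions to gene starts was not run. Total reads per library are not known, so a missing island is not evidence of missing signal.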
